A study of Mus musculus with 6 samples.

Results

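Livers of 8-week-old F1 male mice were examined for 41 genes that build, load and drain the autophagosome or control the lysosome. FR F1 livers were set against control F1 livers. Members were taken by gene name, and all 41 were found among the 53715 genes of the count table and were among the 13022 genes with enough counts to be tested. The mice were of ICR, an outbred stock, and polyadenylated RNA of whole liver was sequenced as 3 FR F1 libraries and 3 control F1 libraries. FR F1 mice carry the stress label paternal famine and control F1 mice the label control, while the series title names a paternal overdiet and the letters FR are not spelled out. No genotype, agent or diet is given for the offspring themselves. The labels do not say whether a library is a separate animal, and p-values therefore cover no more than the spread between the libraries sequenced. The comparison asks whether liver transcripts of the offspring differed with the father's exposure.

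Library totals ranged from 2468857 to 2730160 counts in FR F1 and from 2279755 to 2569934 in control F1 livers. All 10 hepatocyte markers were counted, and Alb, the gene of serum albumin, had 731 ± 42.6 CPM in FR F1 and 912 ± 106 CPM in control F1 livers (TMM-normalised CPM, that is counts scaled to a common library size, mean ± SD, n = 3 per group). Alb reached 1.14 counts per base pair in its highest library and lay below Apob, whose mean over all libraries was 1493 CPM. Whether the level of so densely counted a gene is compressed was not tested. Control replicate 3 stood apart in mitochondrially encoded genes, which took 0.101% of its counts, against 0.340% to 0.346% in FR F1 and 0.282% to 0.352% in the other control F1 libraries. It held the highest or the lowest value of the 6 libraries for 28 of the 41 members. Leaving it out moved the log2 fold change of 26 members by more than 1.5 times, and these values are given with each of them.

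Autophagy encloses cytoplasm in a double membrane and delivers it to the lysosome for breakdown. The ULK kinase complex starts the process, a lipid kinase complex around VPS34 marks the membrane, lipid carriers extend it, and ubiquitin-like conjugation attaches ATG8 proteins to it. Receptors tie cargo to the ATG8 proteins, lysosomal proteases digest it, and the transcription factors TFEB and TFE3 raise many of these genes when nutrients are scarce. In liver the pathway supplies amino acids and lipids during fasting and clears worn mitochondria.

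TFEB and TFE3 bind a site built on the E-box CACGTG, so the stretches before the start sites that hold it are shown for the 4 members with the longer form GTCACGTG on either strand. They are Lamp1 (chr8:13159073-13159160, plus strand), Ctsd (chr7:142387893-142387952, minus strand), Atg3 (chr16:45158708-45158790, plus strand) and Atg7 (chr6:114670937-114670996, plus strand), from RefSeq on GRCm38.p6, with the E-boxes in capitals and each stretch written in the direction of the gene.
Lamp1: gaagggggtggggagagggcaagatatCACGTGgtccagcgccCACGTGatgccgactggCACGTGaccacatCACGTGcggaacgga
Ctsd: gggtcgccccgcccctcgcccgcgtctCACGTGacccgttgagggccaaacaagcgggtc
Atg3: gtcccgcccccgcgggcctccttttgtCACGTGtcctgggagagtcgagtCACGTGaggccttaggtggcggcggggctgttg
Atg7: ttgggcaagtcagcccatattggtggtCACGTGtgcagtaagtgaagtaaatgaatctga
The Lamp1 stretch holds 4 E-boxes within 61 bases of the start, and the Atg3 stretch holds 2. Ctsd has a further E-box 245 bases before its start, outside the stretch shown. The Atg7 stretch precedes a RefSeq start that lies inside the annotated gene, which runs from 114643097 to 114860614 on chromosome 6. Of the 33 members with a RefSeq promoter, 7 held CACGTG in the 250 bases before a start, which is 21.2%, against 6.86% of 27025 genes. The other 3 were Atg5, Bnip3 and Ctsl. GTCACGTG, which contains that E-box, was present in 4 members (12.1%) and in 2.11% of genes. These are matches of letters on both strands and do not show binding. The 27025 genes were not limited to genes tested in these livers and were not matched to the members in base composition. Whether the shares differ for that reason was not tested.

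In FR F1 livers 0 of the 41 members passed the threshold, where 0.837% of all tested genes did, 0.392% as higher and 0.445% as lower. The test was edgeR's quasi-likelihood test, with p adjusted by Benjamini-Hochberg over 13022 genes and a threshold of 0.05. At an unadjusted p under 0.05 there were 6 members, or 14.6%, beside 17.9% of all tested genes. DESeq2 called 0 members, with 6 at an unadjusted p under 0.05, and limma-voom called 0, with 7, while they called 3.51% and 0.791% of all tested genes. The smallest adjusted p was 0.135, for Map1lc3a. Log2 fold changes of FR F1 over control F1 ran from -0.68 for Atg9a to 0.61 for Map1lc3a, and their median was -0.11, beside 0.000404 for all tested genes. In bulk tissue fewer cells of a type and less RNA per cell cannot be told apart.

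For 37 of the 41 members the 95% interval of the log2 fold change lay between -1 and 1, that is within a 2-fold change either way, which held for 61.0% of all tested genes. The 4 members whose interval went past 2-fold were Atg9a (-1.27 to -0.09), Tfeb (-1.16 to -0.08), Rb1cc1 (-0.45 to 1.42) and Lamp2 (-0.23 to 1.11). The median standard error was 0.17 for members and 0.23 for all tested genes, and members were counted more deeply, with a median of 113 CPM beside 42.8 CPM. Negative values outnumbered positive ones, with 30 of 41 members below 0 (73.2%), beside 50.0% of all tested genes. In 15 members the FR F1 libraries lay wholly on one side of the control F1 libraries (36.6%, beside 25.7% of all tested genes). FR F1 lay below in 11 of them and above in 4, beside 13.2% and 12.5% of all tested genes. Summed over all 41 members, the level was 6152 to 6672 CPM in FR F1 livers, against 6405 to 7068 CPM in control F1 livers, so the groups overlapped. The sums of the initiation, ATG8, cargo receptor, transcription factor and lysosomal groups overlapped too. The mean sum of the lysosomal group was 1935 CPM in FR F1 and 1871 CPM in control F1 livers.

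**Figure D1:**
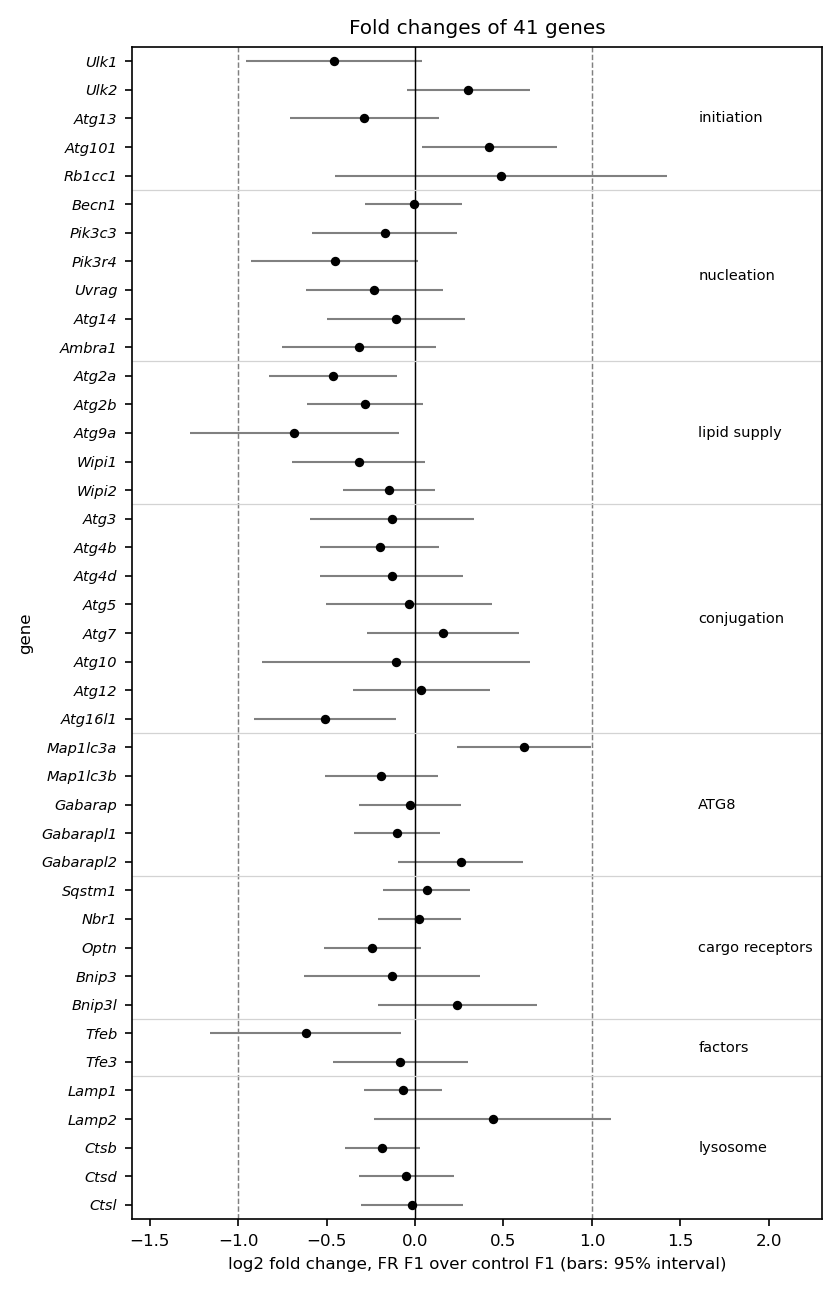
Log2 fold change of FR F1 over control F1 for each of the 41 genes, grouped by role, with the 95% interval as a bar and dashed lines at a 2-fold change (-1 and 1). All 5 genes of lipid supply lie below 0, and the intervals of Atg9a, Tfeb, Rb1cc1 and Lamp2 cross a dashed line.

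The 5 genes that start autophagy were split in direction. Ulk1, the kinase that AMPK and mTORC1 act on, had 200.4, 172 and 304 CPM in FR F1 livers, against 291, 276 and 361 CPM in control F1 livers. FR replicate 3 lay among the control F1 libraries, and the log2 fold change was -0.46 ± 0.22 (SE, adjusted p = 0.306). It was -0.72 without FR replicate 3 and -0.30 without FR replicate 2. Its paralog Ulk2 had 169, 200.5 and 168 CPM in FR F1 livers, against 161, 154 and 121 CPM in control F1 livers. Every FR F1 library was above every control F1 library for Ulk2, with a log2 fold change that came to 0.30 ± 0.15 (SE, adjusted p = 0.329) and 0.18 without control replicate 3. Atg101, a small subunit that steadies ATG13, had 98.0, 95.8 and 104 CPM in FR F1 livers, against 59.8, 78.0 and 84.4 CPM in control F1 livers. The groups were apart there too, at 0.42 ± 0.16 (SE, adjusted p = 0.242) and 0.52 without control replicate 3, with FR F1 the higher.

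Of the remaining genes of that complex, Atg13, the regulatory subunit, had a log2 fold change that came to -0.29 ± 0.18 (SE, adjusted p = 0.432) with overlapping groups, or -0.16 without control replicate 3. Rb1cc1, the scaffold also called FIP200, had 88.2, 94.7 and 73.4 CPM in FR F1 livers, against 95.0, 64.9 and 24.2 CPM in control F1 livers. Control replicate 3 alone was far below the other 5 libraries, and the log2 fold change of 0.48 ± 0.41 (SE, adjusted p = 0.545) came to 0.09 without it.

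All 6 genes of the VPS34 lipid kinase complex and its regulators had negative log2 fold changes, Becn1 by so little that it turned positive with other scalings, and their median was -0.20, or -0.11 without control replicate 3. Pik3r4, the regulatory subunit VPS15, had 31.4, 25.1 and 32.8 CPM in FR F1 livers, against 37.3, 36.1 and 48.7 CPM in control F1 livers. The groups did not overlap, with FR F1 below, and the log2 fold change was -0.45 ± 0.20 (SE, adjusted p = 0.290), or -0.31 without control replicate 3. Ambra1, which ties Beclin 1 to other regulators, had 60.6, 59.0 and 61.5 CPM in FR F1 livers, against 66.3, 63.6 and 95.5 CPM in control F1 livers. FR F1 was below in every library, and the log2 fold change was -0.32 ± 0.19 (SE, adjusted p = 0.400), or -0.11 without control replicate 3, which was the highest.

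Becn1, the gene of Beclin 1 and the most counted member of that group, had 145, 135 and 144 CPM in FR F1 livers, against 153, 141 and 133 CPM in control F1 livers. Its groups overlapped almost fully, and its log2 fold change was -0.01 ± 0.12 (SE, adjusted p = 0.976), the closest to 0 of all members, or -0.06 without control replicate 3. Becn1 shares 3104 of its 7065 exonic base pairs with Cntd1 on the other strand, and whether reads were counted by strand is unknown. The catalytic subunit Pik3c3 had -0.17 ± 0.18 (SE, adjusted p = 0.623), Uvrag, of the late complex, had -0.23 ± 0.17 (SE, adjusted p = 0.490), and Atg14, of the early complex, had -0.11 ± 0.17 (SE, adjusted p = 0.753), all with overlapping groups. Without control replicate 3 Atg14 was at -0.00218. Summed over the 6 genes, the level was 384, 384 and 405 CPM in FR F1 livers, against 424, 418 and 473 CPM in control F1 livers, so FR F1 was lower in every library on the sum.

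The 5 genes of lipid supply and phosphoinositide binding were the only role group in which FR F1 and control F1 libraries overlapped for no gene. Each had a negative log2 fold change, as did the genes of the VPS34 group and Tfeb and Tfe3. Each also had all 3 FR F1 libraries below all 3 control F1 libraries, beside 13.2% of all tested genes. Summed, they came to 548, 514 and 590.0 CPM in FR F1 livers, against 663, 642 and 772 CPM in control F1 livers. Their median log2 fold change was -0.32, or -0.24 without control replicate 3. Of the 5, 0 passed the threshold and 2 had an unadjusted p under 0.05, beside 17.9% of all tested genes.

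Atg2a (ENSMUSG00000024773.14, chromosome 19, 6241668 to 6262335, plus strand, mm10), which encodes a bridge that moves lipids into the growing membrane, had 171, 149 and 203.1 CPM in FR F1 livers, against 261, 203.3 and 257 CPM in control F1 livers. FR replicate 3 and control replicate 2 lay side by side, and the log2 fold change was -0.46 ± 0.16 (SE, adjusted p = 0.197), or -0.42 without control replicate 3. Its paralog Atg2b had 86.7, 88.1 and 94.4 CPM in FR F1 livers, against 95.0, 117 and 115 CPM in control F1 livers, close together but not overlapping, at -0.28 ± 0.14 (SE, adjusted p = 0.333). Atg9a (ENSMUSG00000033124.15, chromosome 1, 75180860 to 75192196, minus strand), the lipid scramblase of the vesicles that seed the membrane, had 40.0, 38.0 and 35.3 CPM in FR F1 livers, against 42.5, 54.1 and 84.8 CPM in control F1 livers. Control replicate 3 was well above all others, and the log2 fold change of -0.68 ± 0.26 (SE, adjusted p = 0.230) came to -0.36 without it.

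Wipi1 and Wipi2 bind the phosphoinositide that VPS34 makes, and WIPI2 brings in ATG16L1. Wipi1 had 46.7, 45.0 and 48.4 CPM in FR F1 livers, against 54.2, 52.7 and 67.5 CPM in control F1 livers. Wipi2 had 203, 195 and 209 CPM in FR F1 livers, against 211, 215 and 247 CPM in control F1 livers. In both the FR F1 libraries were the lower ones by a narrow margin, with log2 fold changes of -0.32 ± 0.16 (SE, adjusted p = 0.340) for Wipi1 and -0.15 ± 0.11 (SE, adjusted p = 0.503) for Wipi2. Without control replicate 3 they were -0.20 and -0.08.

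The 250 bases before the RefSeq starts of Atg2a (chr19:6241418-6241667, plus strand) and Atg9a (chr1:75192011-75192260, minus strand) are shown because these were the 2 genes of lipid supply with an unadjusted p under 0.05. Capitals mark CCAAT or its reverse complement ATTGG, and each stretch holds 3 such boxes and no CACGTG.
Atg2a: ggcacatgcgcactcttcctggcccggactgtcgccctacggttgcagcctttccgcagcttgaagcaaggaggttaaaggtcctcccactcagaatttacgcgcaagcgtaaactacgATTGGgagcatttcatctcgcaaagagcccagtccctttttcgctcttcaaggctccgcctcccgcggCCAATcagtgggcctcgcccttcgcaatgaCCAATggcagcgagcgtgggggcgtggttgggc
Atg9a: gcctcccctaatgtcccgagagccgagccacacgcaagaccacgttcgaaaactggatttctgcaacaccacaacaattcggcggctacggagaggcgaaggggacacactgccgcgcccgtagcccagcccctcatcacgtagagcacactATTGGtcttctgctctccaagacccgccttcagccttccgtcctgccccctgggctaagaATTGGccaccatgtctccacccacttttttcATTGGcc
At least 3 CCAAT boxes were found in 4 of the 33 members and in 3.23% of the 27025 genes with a promoter in RefSeq. A CCAAT box of any number was present in 10 of 33 members (30.3%) and in 37.5% of genes, and the GC box GGGCGG in 22 of 33 (66.7%) and in 35.4%. The forkhead core GTAAACA and the full cyclic AMP element TGACGTCA matched 0 of 33 members, beside 3.54% and 1.77% of genes.

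Of the 8 conjugation genes 0 passed the threshold, and their median log2 fold change was -0.12. Atg7, the activating enzyme, had 113, 132 and 115 CPM in FR F1 livers, against 81.5, 111 and 130.0 CPM in control F1 livers, with overlapping groups and a log2 fold change that came to 0.16 ± 0.19 (SE, adjusted p = 0.665), or 0.32 without control replicate 3. Atg16l1, which places the conjugation enzyme on the membrane, was the exception in that its groups did not overlap. It had 92.4, 73.7 and 66.5 CPM in FR F1 livers, against 97.6, 109 and 124 CPM in control F1 livers, and its log2 fold change was -0.51 ± 0.17 (SE, adjusted p = 0.201), with FR F1 lower, or -0.42 without control replicate 3.

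The other 6 conjugation genes had overlapping groups and adjusted p from 0.489 to 0.944. Log2 fold changes were -0.13 for Atg3, the ATG8-carrying enzyme, and -0.11 for Atg10, the ATG12-carrying enzyme. The ubiquitin-like Atg12 and its target Atg5 had 0.04 and -0.03. Atg4b and Atg4d, proteases that trim ATG8 proteins, had -0.20 and -0.13. Without control replicate 3 the values were -0.31 for Atg3, -0.28 for Atg10, -0.06 for Atg12, -0.20 for Atg5, -0.12 for Atg4b and -0.07 for Atg4d, so Atg12 turned. Atg10 was the least counted member, with 20 to 41 counts per library, and had the interval -0.86 to 0.65. Summed over the 8 genes, the level was 634, 678 and 632 CPM in FR F1 livers, against 711, 695 and 693 CPM in control F1 livers. The sum was lower in each FR F1 library, but it includes Atg16l1. The groups overlapped in the other 7 genes, so the sum does not show a lower level across the group.

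Among the ATG8 genes, Map1lc3a had the highest log2 fold change. This gene of LC3A (ENSMUSG00000027602.9, chromosome 2, 155276297 to 155278073, plus strand) had 69.5, 83.3 and 83.3 CPM in FR F1 livers, against 49.0, 46.4 and 58.7 CPM in control F1 livers. All FR F1 libraries were above all control F1 libraries, and the log2 fold change was 0.61 ± 0.16 (SE, adjusted p = 0.135), the largest positive value among the members. Its 95% interval was 0.23 to 0.99, and without control replicate 3 the value was 0.72. Map1lc3b, the gene of the form most used as an autophagosome marker, had 166, 179.8 and 222 CPM in FR F1 livers, against 229, 215 and 204 CPM in control F1 livers. It ran the other way with overlapping groups, at -0.19 ± 0.14 (SE, adjusted p = 0.483).

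The GABARAP branch, which acts at closure and fusion, had log2 fold changes from -0.10 to 0.26. Gabarapl1, the most counted ATG8 gene, had 304, 338 and 318 CPM in FR F1 livers, against 370.3, 316 and 344 CPM in control F1 livers, with a log2 fold change that came to -0.10 ± 0.10 (SE, adjusted p = 0.620). Gabarap had -0.03 ± 0.12 (SE, adjusted p = 0.916), or -0.11 without control replicate 3, and the groups overlapped in both. Gabarapl2 had 101, 94.7 and 110.0 CPM in FR F1 livers, against 92.8, 90.6 and 72.1 CPM in control F1 livers, with FR F1 narrowly the higher, at 0.26 ± 0.15 (SE, adjusted p = 0.404) and 0.15 without control replicate 3. Summed over the 5 ATG8 genes, the level was 807 to 915 CPM in FR F1 livers, against 834 to 928 CPM in control F1 livers, and the groups overlapped.

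Cargo receptors gave small values. Sqstm1, which carries ubiquitinated protein and is itself degraded with it, had 369.8, 399.8 and 412 CPM in FR F1 livers, against 409, 378 and 341 CPM in control F1 livers, with overlapping groups and a log2 fold change that came to 0.07 ± 0.11 (SE, adjusted p = 0.759), or -0.00282 without control replicate 3. Nbr1, a related receptor, had 0.03 ± 0.10 (SE, adjusted p = 0.910), or 0.08 without control replicate 3. Optn, the gene of optineurin, a receptor for mitochondria and bacteria, had 218, 219 and 188 CPM in FR F1 livers, against 228, 269 and 242 CPM in control F1 livers. Its groups were apart by a narrow margin, with FR F1 lower, at -0.24 ± 0.12 (SE, adjusted p = 0.323).

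Bnip3 and Bnip3l sit on the outer mitochondrial membrane and recruit ATG8 proteins there. Bnip3 had 177, 205 and 217 CPM in FR F1 livers, against 294, 201 and 159 CPM in control F1 livers. Control replicate 1 was the highest and control replicate 3 the lowest, so the control F1 libraries spanned the FR F1 libraries, and the log2 fold change was -0.13 ± 0.22 (SE, adjusted p = 0.766). It was -0.32 without control replicate 3 and 0.14 without control replicate 1. Bnip3l had 0.24 ± 0.19 (SE, adjusted p = 0.531), or 0.07 without control replicate 3.

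**Figure D2:**
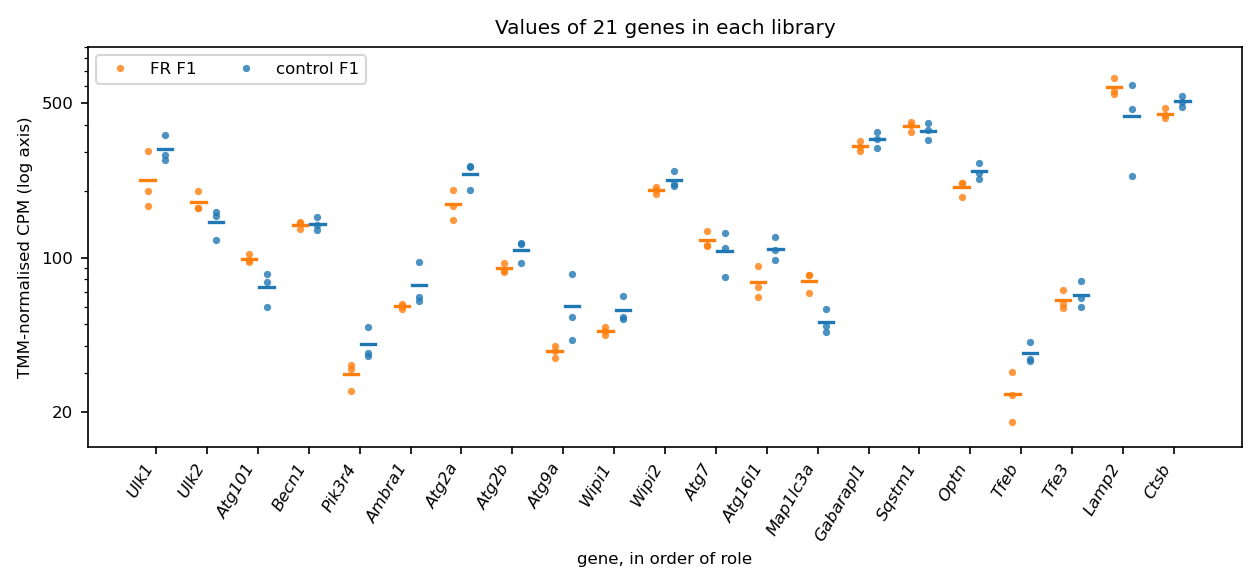
TMM-normalised CPM on a log axis of 21 genes in each library, FR F1 in orange and control F1 in blue, with a bar at the mean of 3 libraries. Map1lc3a, Atg101 and Ulk2 have FR F1 above control F1 in every library, and Lamp2 shows a wide control F1 spread with 235 CPM in replicate 3.

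Tfeb (ENSMUSG00000023990.18, chromosome 17, 47737030 to 47792419, plus strand) had 23.9, 18.1 and 30.4 CPM in FR F1 livers, against 34.3, 34.7 and 41.8 CPM in control F1 livers. All FR F1 libraries were below all control F1 libraries, and the log2 fold change was -0.62 ± 0.23 (SE, adjusted p = 0.232), or -0.52 without control replicate 3. Its paralog Tfe3 had 62.1, 59.3 and 71.4 CPM in FR F1 livers, against 59.8, 65.8 and 78.2 CPM in control F1 livers, with overlapping groups, at -0.08 ± 0.17 (SE, adjusted p = 0.810) and 0.03 without control replicate 3. The 4 members printed above with the longer E-box form had log2 fold changes of -0.07 for Lamp1, -0.05 for Ctsd, -0.13 for Atg3 and 0.16 for Atg7. The groups overlapped in all 4.

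The lysosomal genes were the most counted role group, with a median level of 431 CPM. Ctsb, the gene of the cysteine protease cathepsin B, had 443, 429.7 and 476 CPM in FR F1 livers, against 539, 484 and 509 CPM in control F1 livers. FR F1 lay below in every library by a small margin, at -0.18 ± 0.09 (SE, adjusted p = 0.332). The aspartic protease gene Ctsd had 153, 146 and 169 CPM in FR F1 livers, against 159.6, 160.5 and 165 CPM in control F1 livers, with a log2 fold change that came to -0.05 ± 0.12 (SE, adjusted p = 0.842). The cysteine protease gene Ctsl had -0.02 ± 0.13 (SE, adjusted p = 0.950) and the membrane glycoprotein gene Lamp1 had -0.07 ± 0.10 (SE, adjusted p = 0.720), both with overlapping groups. Without control replicate 3 they were at -0.10 and -0.12. The intervals of these 4 genes lay between -0.40 and 0.27.

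Lamp2 (ENSMUSG00000016534.15, chromosome X, 38401357 to 38456454, minus strand), a membrane glycoprotein needed for fusion and for chaperone-mediated autophagy, had 553, 653 and 569.9 CPM in FR F1 livers, against 605, 471 and 235 CPM in control F1 livers. Control replicate 3 was far below the other libraries and control replicate 1 lay within the FR F1 range. The log2 fold change was 0.44 ± 0.29 (SE, adjusted p = 0.445) and 0.13 without control replicate 3. With no filter on low counts Lamp2 was called higher, at 0.42 (adjusted p = 0.0464), where 4.04% of 30930 genes were called.

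**Figure D3:**
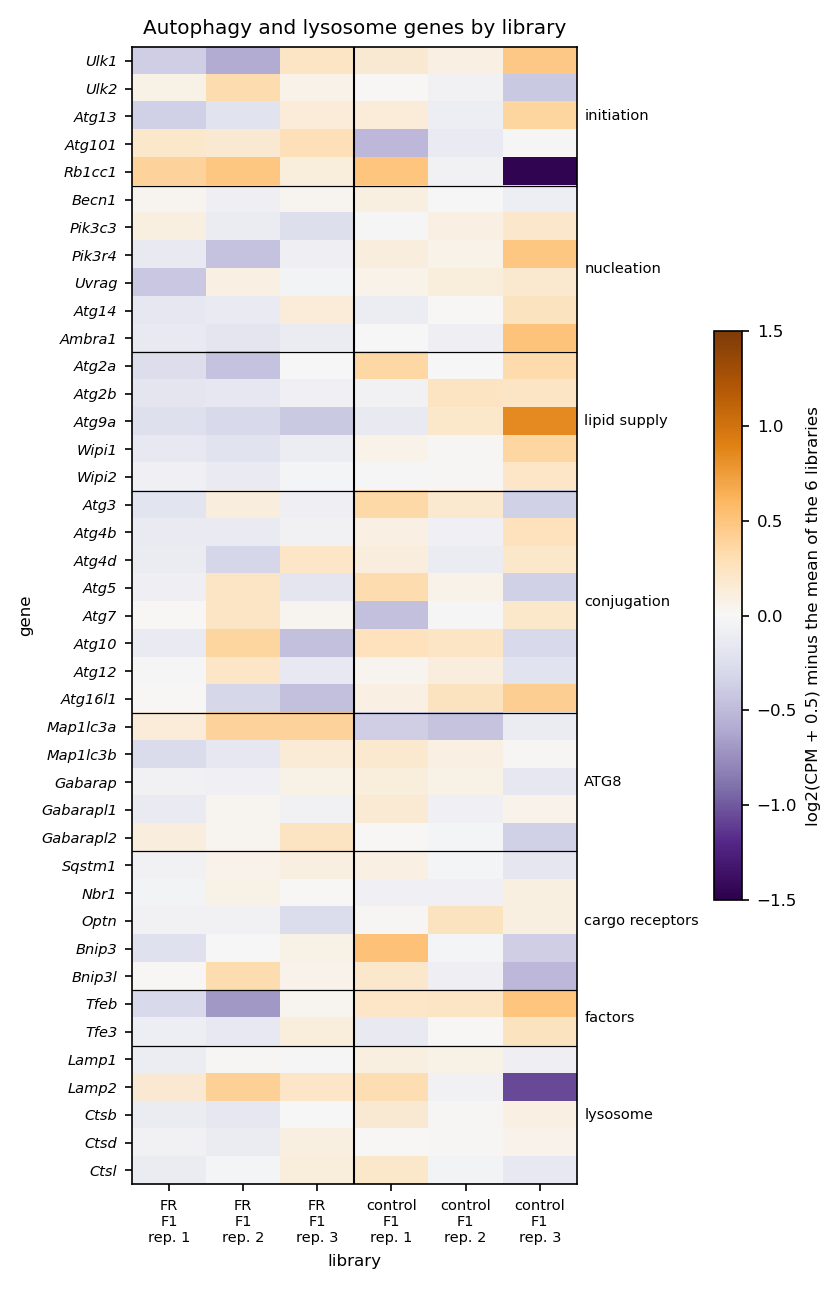
Deviation of log2(CPM + 0.5) from the mean of the 6 libraries for each of the 41 genes (rows, by role) in each library (columns, FR F1 left of control F1), orange for higher and purple for lower. Control replicate 3 holds the deepest colours, with Rb1cc1 and Lamp2 low and Atg9a high.

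Compared per length, as CPM per kilobase of the longest annotated transcript, Lamp1 was the highest member with a mean of 189 in FR F1 and 198 in control F1 livers. Gabarapl1 followed with 176 in FR F1 and 189 in control F1 livers, and Sqstm1 with 147 in FR F1 and 141 in control F1 livers. At the low end Pik3r4 had 6.04 in FR F1 and 8.25 in control F1 livers, and Atg10 had 7.11 in FR F1 and 7.71 in control F1 livers. Lamp2 had 164 in FR F1 and 121 in control F1 livers, so it lay above Sqstm1 in FR F1 and below it in control F1 livers. The order in control F1 livers rests on control replicate 3, which had 235 CPM of Lamp2, against 605 and 471 CPM in control replicates 1 and 2. Lamp1 reached 0.531 counts per base pair in its highest library, the most of any member. Over all tested genes 21 exceeded 1 count per base pair, and the highest reached 3.09. Whether the levels of densely counted genes are compressed was not tested.

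**Figure D4:**
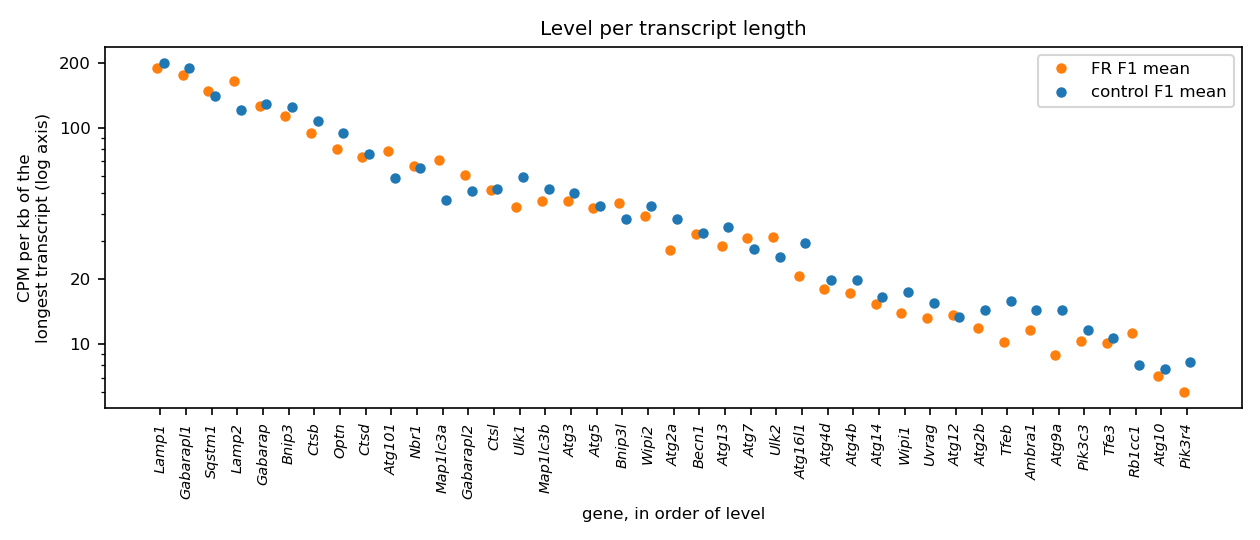
Mean CPM per kilobase of the longest transcript on a log axis for the 41 genes, FR F1 in orange and control F1 in blue, in falling order of the mean of both groups. Lamp1 is highest, at 189 in FR F1 and 198 in control F1 livers, and Pik3r4 lowest, at 6.04 in FR F1 and 8.25 in control F1 livers.

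Genes that work beside the members were taken as 7 further lists, of which 138 of 141 genes were tested. Of these 0 passed with edgeR. At an unadjusted p under 0.05 there were 23 (16.7%, beside 17.9% of all tested genes). Of the 138 genes 7 were higher and 16 lower at that level, beside 9.02% and 8.88% of all 13022 tested genes. Other lysosomal hydrolases and membrane proteins, 33 genes, had a median log2 fold change of -0.25. Negative values were found in 27 of them (81.8%, beside 50.0% of all tested genes). FR F1 lay wholly below in 12 and wholly above in 2 (36.4% and 6.06%), beside 13.2% and 12.5% of all tested genes. Gusb, the gene of beta-glucuronidase, had the smallest p, with 47.9, 54.5 and 50.1 CPM in FR F1 livers, against 82.0, 71.2 and 79.4 CPM in control F1 livers. FR F1 was lower in every library, at -0.61 ± 0.15 (SE, adjusted p = 0.108). Summed over the 33 genes, the level was 4126, 4109 and 4173 CPM in FR F1 livers, against 4759, 4534 and 4923 CPM in control F1 livers, with no overlap between the groups.

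The vacuolar ATPase, the proton pump of the lysosome, had 0 of 16 genes past the threshold and a median of -0.06, or -0.10 without control replicate 3. Its smallest p was that of Atp6v0a2, a membrane subunit, at -0.37 ± 0.13 (SE, adjusted p = 0.213). Genes of autophagosome-lysosome fusion numbered 14, with 11 negative values (78.6%, beside 50.0% of all tested genes). Their median was -0.20, or -0.13 without control replicate 3. FR F1 and control F1 libraries did not overlap in 1 of the 14 (7.14%, beside 25.7% of all tested genes). Vps39, of the HOPS tethering complex, had the smallest p there, at -0.32 ± 0.18 (SE, adjusted p = 0.363). Summed, the 14 genes came to 1258, 1217 and 1243 CPM in FR F1 livers, against 1317, 1336 and 1382 CPM in control F1 livers, lower in each FR F1 library.

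Among 32 tested genes of mTORC1 and AMPK control, which gate the ULK complex and TFEB, 0 passed and the median was -0.04, or 0.00192 without control replicate 3. Mtor, the kinase that restrains autophagy, had 89.7, 85.9 and 70.6 CPM in FR F1 livers, against 105, 128 and 151 CPM in control F1 livers. FR F1 was lower in every library, at -0.64 ± 0.18 (SE, adjusted p = 0.139) and -0.51 without control replicate 3. Rragb and Rragd, of the same list, had 1 and 31 counts over all libraries and were not tested. Of 14 other cargo and mitophagy receptors 0 passed, with a median of -0.09. Stbd1, a receptor for glycogen, had the smallest p, at -0.59 ± 0.18 (SE, adjusted p = 0.17).

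Of 16 tested genes of other autophagosome machinery 0 passed, with a median of 0.11. Mitf, a factor related to TFEB, had 19.1, 23.2 and 19.7 CPM in FR F1 livers, against 13.0, 10.4 and 6.14 CPM in control F1 livers. FR F1 was higher in every library, at 1.07 ± 0.32 (SE, adjusted p = 0.158) and 0.82 without control replicate 3. Atg9b, the paralog of Atg9a, had 22 counts over all libraries and was not tested. Among 13 transcription regulators linked to liver autophagy genes 0 passed, with a median of -0.16. Cebpb, a factor with a part in rhythmic autophagy of mouse liver, had 37.8, 44.6 and 57.9 CPM in FR F1 livers, against 29.9, 16.7 and 10.7 CPM in control F1 livers. FR F1 was higher in every library, at 1.29 ± 0.36 (SE, adjusted p = 0.141) and 0.99 without control replicate 3.

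**Figure D5:**
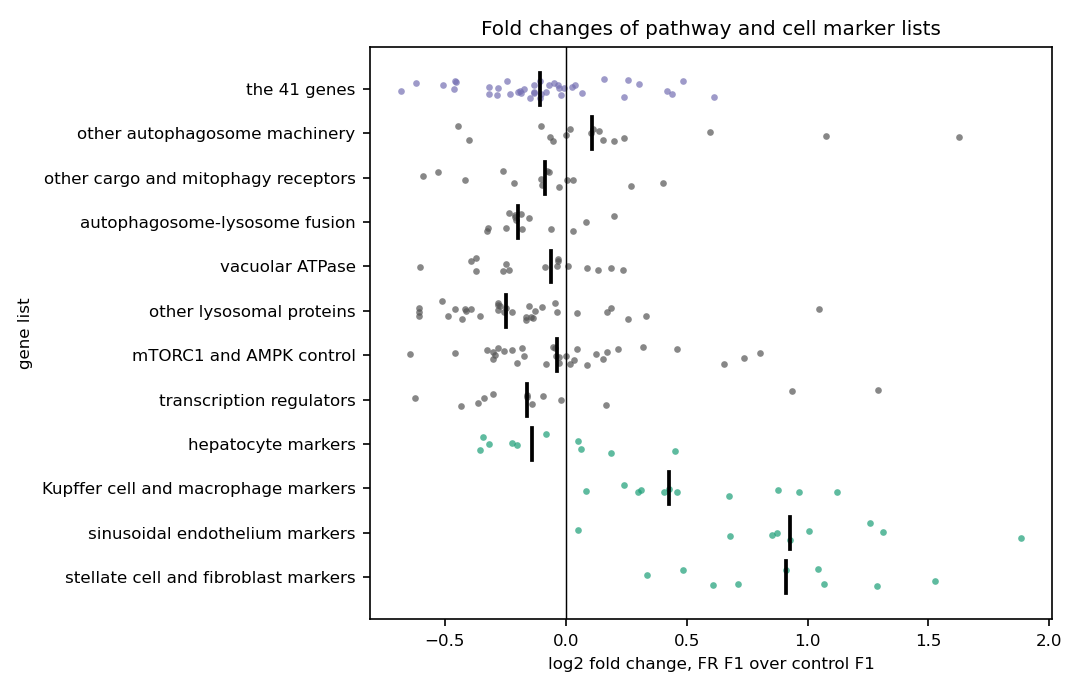
Log2 fold change of FR F1 over control F1 for each tested gene (points) of the 41 members, the 7 further pathway lists and 4 cell marker lists, with a black bar at the median. The members centre at -0.11 and the endothelial markers at 0.93.

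Autophagy genes are active in every liver cell type, and several marker lists of other cells had a higher sum in every FR F1 library. Sinusoidal endothelial markers, 9 genes, had summed levels of 698 to 806 CPM in FR F1 livers, against 368 to 557 CPM in control F1 livers, and stellate cell and fibroblast markers, 9 genes, had 666 to 819 CPM in FR F1 livers, against 315 to 507 CPM in control F1 livers. FR F1 lay wholly above in 8 of the 9 endothelial and 6 of the 9 stellate markers, beside 12.5% of all tested genes, and Pdgfra rose past the threshold, at 1.53 ± 0.26 (SE, adjusted p = 0.0456). The 10 hepatocyte markers had 6108 to 6771 CPM in FR F1 livers, against 5686 to 7379.6 CPM in control F1 livers. Of the 10, 6 were negative, beside 50.0% of all tested genes, and the median was -0.14, or -0.22 without control replicate 3. FR F1 lay wholly below in 3 of the 10, Alb, Hnf4a and Tat, beside 13.2% of all tested genes. The 11 Kupffer cell and macrophage markers had 447 to 870.4 CPM in FR F1 livers, against 345 to 677 CPM in control F1 livers, with control replicate 2 the lowest. Of the 11, 0 were negative, beside 50.0% of all tested genes, and the median was 0.43, or 0.70 without control replicate 3. FR F1 lay wholly above in 1 of the 11, beside 12.5% of all tested genes. Smaller lists came to 70.3 to 94.0 CPM in FR F1 livers, against 42.4 to 137 CPM in control F1 livers for 5 cholangiocyte markers, 55.6 to 101 CPM in FR F1 livers, against 16.7 to 36.1 CPM in control F1 livers for 5 B and plasma cell markers, and 6.26 to 9.72 CPM in FR F1 livers, against 2.25 to 5.64 CPM in control F1 livers for 4 neutrophil markers. None of these markers was at 0 in all libraries. Only 2 of the 5 cholangiocyte, 3 of the 5 B and plasma cell and 1 of the 4 neutrophil markers had enough counts to be tested. The cholangiocyte sum of 137 CPM was that of control replicate 3, where Spp1 alone had 120 CPM. Spp1 had a log2 fold change of -0.17, and Sox9, the other tested marker of that list, had 0.96. Ctss, a cathepsin gene abundant in macrophages, had 56.1, 29.1 and 48.0 CPM in FR F1 livers, against 26.0, 13.5 and 24.5 CPM in control F1 livers, lowest in replicate 2 of each group, as was the Kupffer cell sum. The part of these cell types in the members' values was not tested.

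Of the 41 members, 16 share exonic bases with another annotated gene, 15 of them with a gene on the other strand. Besides Becn1, Gabarapl1 shares 570 of 2013 base pairs with 1700101I11Rik, Bnip3 504 of 2265 with an antisense model, and Ctsl 1742 of 6489 with another and 395 with a processed pseudogene on its own strand. Atg4d shares 1405 of 7264 with Kri1, Uvrag 1589 of 9035 with an antisense model, and Sqstm1 580 of 3356 with Mrnip, all on the other strand. Reads of these stretches cannot be assigned with certainty without the strand setting. Ctsd shares 808 of 2351 base pairs with a same-strand protein-coding model that had a mean of 0 counts. Atg9a shares 1832 of 5762 base pairs with a same-strand transcript model that had a mean of 0.167 counts, and 46 with Ankzf1 on the other strand. The other genes with an unadjusted p under 0.05, Map1lc3a, Atg2a, Atg16l1, Tfeb and Atg101, share none.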

How the data were processed

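Polyadenylated liver RNA was sequenced as 3 FR F1 and 3 control F1 libraries, grouped by title. The labels name Trizol and a TruSeq DNA kit. The values are raw read counts by gene, as the authors deposited them. The build mm10 and the tools HTSeq, STAR, DESeq2 and StringTie stand in the submitters' processing notes, without versions. No annotation, strand setting or treatment of duplicate and shared reads is named in the sources used here. Columns were matched to samples by the code in the description. Of 53715 gene IDs, 53620 had a symbol in GENCODE M21, and 22785 genes had 0 counts.

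Counts were tested in R 4.3.3 with edgeR 4.0.16 (filterByExpr with minimum count 10 and minimum total 15, TMM, glmQLFTest, two-sided, Benjamini-Hochberg). The standard error is the absolute log2 fold change over the square root of F, and the 95% interval uses the t quantile at the fit's total degrees of freedom. The procedure was tested on simulated data. The common dispersion was 0.0500. Replicates differed beyond counting noise, with chi-square per degree of freedom from 4.28 to 14.5.

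Members, role groups and lists were chosen with earlier results of these data known, so no list was tested and counts are read beside all genes. Values in every library are given for the 14 members of smallest p and the most counted member of each role group. Further genes by name are the smallest p of each further list, since none passed. Pdgfra, Hnf4a, Tat, Ctss, Alb, Spp1, Sox9, Map1lc3b, Rb1cc1, Gabarapl2, Bnip3 and Ctsd were added after their values were seen. The alternatives were DESeq2 1.42.0, limma-voom (limma 3.58.1), 2 scalings, 2 filters, a replicate block and each library left out. Promoters are RefSeq sequences of GRCm38.p6, matched by symbol for 33 members.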

Additional observations from a re-analysis of the deposited data

How the results depend on the processing

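Over the 13 alternatives 0 members were called, except 1, Lamp2, with no filter on low counts. The number of genes changed was 109, and it was 457 with DESeq2, 1251 with no filter on low counts and 21 with the replicate block. It ran from 7 without FR replicate 1 to 651 without control replicate 1 when single libraries were left out, with 11 without FR replicate 2, 45 without FR replicate 3, 17 without control replicate 2 and 159 without control replicate 3. The cause was not tested. A pairing of libraries by replicate number was not shown. The deviations of same-numbered libraries correlated at -0.0173, 0.108 and 0.153, beside -0.221 to 0.155 for other pairs. Not every library correlated best with its own number. With 3 libraries per group the deviations sum to 0 within a group, so these values cannot exclude a pairing. With the replicate block 0 members were called and their median was -0.10. The members' median of -0.11 ran from -0.14 without FR replicate 2 to -0.0476 without FR replicate 1. Direction held in all alternatives for 29 members and turned in at least 1 for 12, of which the largest had 0.16. Becn1, at -0.00806, was 0.00120 with DESeq2, 0.000876 with RLE size factors and 0.00587 with library totals. Across all 13 alternatives, log2 fold changes ran from -0.379 to 0.0813 for Atg10, -0.0705 to 0.126 for Atg12, -0.314 to 0.0196 for Atg3, -0.199 to 0.134 for Atg5, -0.00701 to 0.317 for Atg7, -0.0563 to 0.0434 for Becn1, -0.319 to 0.144 for Bnip3, -0.0962 to 0.0882 for Ctsl, -0.114 to 0.0249 for Gabarap, -0.00834 to 0.0796 for Nbr1, -0.00282 to 0.13 for Sqstm1 and -0.168 to 0.0288 for Tfe3. Of genes beside the members, Cebpb passed the threshold as higher with DESeq2, with no filter and without control replicate 1, Mtor as lower with no filter and without control replicate 1, and Stbd1 as lower with no filter. At 20 to 41 counts per library Atg10 had a standard error of 0.33, beside a median of 0.17 over the members.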
